A study of Homo sapiens with 6 samples.

Results

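The 9 genes PLAU, PLAUR, PLAT, SERPINE2, SERPINB2, F2R, F2RL1, F3 and THBD encode the urokinase system, the receptors that proteases activate by cutting them, and the main initiator and a brake of clotting at the cell surface. They were found by gene name among the 21533 genes with a row in each deposited table, of which 16842 had at least 1 read in any sample. The genes were chosen by name with their exon read counts in 3 PERK siRNA and 3 control siRNA samples already known. Their differences between the groups are therefore given as descriptions, without p-values.

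RNA sequencing was done on the LX-2 line, made from human hepatic stellate cells by immortalisation, and PERK, encoded by EIF2AK3, is a sensor of endoplasmic reticulum stress. One group of 3 samples had been transfected with a control siRNA and the other group of 3 with an siRNA against PERK. All 6 were then given palmitic acid, a saturated fatty acid, and RNA was taken 24 h later, so no sample without the lipid enters any value below. The series asks how PERK in stellate cells bears on liver cancer. The siRNA sequences, the dose of palmitic acid and whether samples of a group were separate cultures are not stated by the labels, so every p-value speaks of the spread of these samples alone, and that spread may be technical. Libraries held 17937141 to 19585872 exon reads. EIF2AK3 itself stood at 6.82, 6.92 and 7.28 TPM (transcript abundance scaled to gene length and depth) with control siRNA and at 2.29, 2.63 and 2.90 TPM with PERK siRNA. By edgeR's quasi-likelihood test with Benjamini-Hochberg adjustment it fell by 1.42 on the log2 scale (SE 0.10), at an adjusted p of 3.0e-13. Exons of the antisense gene AC104134.1 cover 14.4% of its exon bases.

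Urokinase (PLAU) and tissue plasminogen activator (PLAT) are serine proteases that turn plasminogen into plasmin, which digests fibrin and other matrix proteins. Urokinase works bound to its surface receptor (PLAUR), and serpins such as protease nexin-1 (SERPINE2) and PAI-2 (SERPINB2) trap the activators. Thrombin, trypsin-like enzymes and some matrix metalloproteinases cut the extracellular end of the protease-activated receptors, and the new end acts as a tethered ligand. Stellate cells are the matrix-producing cells of the injured liver, in which matrix turnover and thrombin signalling are well known.

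In the control samples F2R, the thrombin receptor gene, had the highest level of the 9 genes at 282.8 ± 4.90 TPM (mean ± SD, n = 3 here and for every TPM mean below). TPM divides by the exon length listed for a gene, such as 3972 bases for F2R and 3752 for PLAT. It is too low where the transcripts present are shorter. The order of genes and the size of ratios between them therefore depend on these lengths. PLAT followed at 266.2 ± 11.4 TPM and PLAU at 184.8 ± 4.69 TPM. The ranges of F2R and PLAT overlapped slightly, at 277.1 to 285.8 and 255.0 to 277.8 TPM, whereas PLAU lay below both. SERPINE2 (85.2 ± 5.43), F3 (83.7 ± 1.49) and PLAUR (80.1 ± 3.33 TPM) formed a middle tier whose ranges overlapped. F2RL1 was lower at 18.2 ± 1.11 TPM, and SERPINB2 (1.99 ± 0.13) and THBD (1.32 ± 0.22 TPM) were scarce. With PERK siRNA the order changed: PLAT led at 370.8 ± 15.3 TPM, F2R was next at 146.1 ± 1.91 TPM, and PLAU moved from the third place to the sixth, below SERPINE2, F3 and PLAUR. In that group THBD and SERPINB2 overlapped at the bottom of the order, and no other neighbours did.

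**Figure D1:**
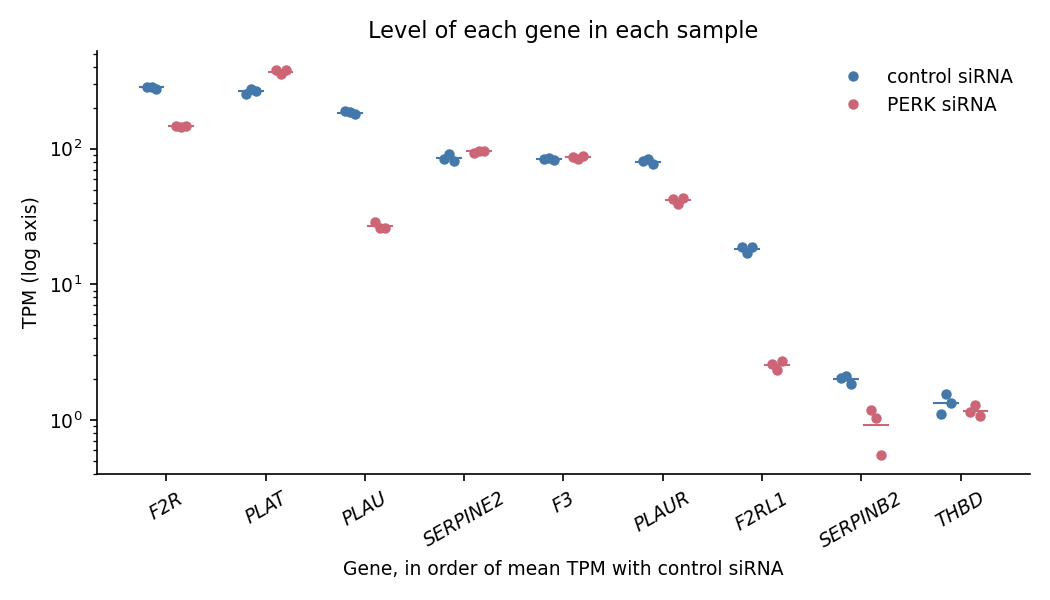
TPM of the 9 genes on a log axis in each of the 3 control siRNA samples (blue) and 3 PERK siRNA samples (red), with 1 point per sample and a bar at the group mean. PLAU and F2RL1 show the widest gaps between the groups, while the points of F3 and THBD overlap.

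PLAU, the urokinase gene, was far lower with PERK siRNA. Its level was 188.1, 186.9 and 179.4 TPM in the control samples and 28.6, 25.9 and 25.9 TPM in the PERK siRNA samples. The groups were well apart, and every PERK siRNA sample lay under every control sample. The log2 fold change, fitted to read counts over all genes, was -2.78 (SE 0.05, 95% interval -2.88 to -2.69), a level 6.88-fold lower. PLAU lies on chromosome 10 (ENSG00000122861; 73909177 to 73917497, plus strand, GRCh38), and 31.1% of its exon bases overlap exons of C10orf55 on the opposite strand. The library kit keeps strand, but whether the counting used it is not given, and C10orf55 was not analysed here. In bulk samples of a cell line such as these, fewer cells expressing a gene and less of its RNA per cell cannot be told apart. That holds for PLAU as for every gene below.

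PLAUR, which encodes the urokinase receptor, was lower by a smaller factor. Its 3 control samples stood at 80.5, 83.3 and 76.6 TPM and its 3 PERK siRNA samples at 42.8, 39.0 and 43.4 TPM, so 52.1% of the control mean remained. The groups did not overlap, and the log2 fold change was -0.94 (SE 0.04). PLAUR lies on chromosome 19 (ENSG00000011422; 43646095 to 43670547, minus strand). The ratio of PLAUR to PLAU transcripts was 0.43, 0.45 and 0.43 with control siRNA and 1.5, 1.51 and 1.68 with PERK siRNA. By TPM, receptor transcripts were thus fewer than urokinase transcripts in every control sample and more in every PERK siRNA sample. Which of them is the more abundant depends on the listed exon lengths, 3446 bases for PLAUR and 2804 for PLAU.

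Of the 9 genes, 6 have an entry that was used here from the RefSeq promoter table for GRCh38.p14 (8 start sites in all), which allows the DNA before their start sites to be shown. PLAT was left out of this search. Below are the 250 bases before a start site of the strongly lower PLAU and F2RL1, the lower PLAUR, and F3, whose level did not separate the groups. Each is written 5′ to 3′ on the gene's strand, and capitals mark matches to TGANTCA, the core letters bound by AP-1 factors, searched on both strands.
PLAU, chr10:73910882-73911131, plus strand: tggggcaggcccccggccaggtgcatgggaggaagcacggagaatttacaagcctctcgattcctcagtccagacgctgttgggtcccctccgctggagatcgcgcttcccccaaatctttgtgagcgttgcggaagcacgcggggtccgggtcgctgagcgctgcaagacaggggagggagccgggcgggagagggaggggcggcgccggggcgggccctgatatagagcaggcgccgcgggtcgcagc
F2RL1, chr5:76818780-76819029, plus strand: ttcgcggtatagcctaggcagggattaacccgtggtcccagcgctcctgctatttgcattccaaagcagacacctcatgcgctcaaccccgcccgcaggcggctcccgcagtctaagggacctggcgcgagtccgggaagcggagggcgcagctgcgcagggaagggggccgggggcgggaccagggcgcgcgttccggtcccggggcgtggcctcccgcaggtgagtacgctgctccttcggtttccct
PLAUR, chr19:43670170-43670419, minus strand: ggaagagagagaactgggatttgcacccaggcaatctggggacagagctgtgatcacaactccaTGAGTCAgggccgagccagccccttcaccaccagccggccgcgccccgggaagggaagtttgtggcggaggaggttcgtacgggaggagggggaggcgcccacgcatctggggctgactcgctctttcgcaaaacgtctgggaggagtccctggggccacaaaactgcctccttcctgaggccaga
F3, chr1:94541760-94542009, minus strand: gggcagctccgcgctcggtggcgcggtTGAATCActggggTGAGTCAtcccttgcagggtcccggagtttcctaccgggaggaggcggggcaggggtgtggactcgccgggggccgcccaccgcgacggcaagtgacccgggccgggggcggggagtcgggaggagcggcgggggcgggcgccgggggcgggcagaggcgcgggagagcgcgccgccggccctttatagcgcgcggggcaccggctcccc

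The AP-1 letters stood 186 bases before the start of PLAUR and 223 and 210 bases before that of F3, and also 102 bases before the SERPINB2 start. They were in neither of the windows listed for PLAU or SERPINE2 nor in that of F2RL1. Of all 35116 windows of this kind and length (300 bases, including 50 after the start), 7.71% held them. The GC box letters GGGCGG were in 1 of the PLAU windows, in those of F2RL1 and F3, in both of SERPINE2, and in 45% of all windows. No window of the 6 genes held the NF-κB motif searched, or TGATGNAA, letters shared by C/EBP-ATF sites, which 1.91% and 3.62% of all windows held. For NF-κB only 1 fixed set of letters was searched, and sites with other letters would be missed. Its absence therefore does not show that these windows lack NF-κB sites. All matches given here only describe the letters in these windows, which reach 250 bases before a start site. Sites farther away were not searched. The part of the letters in the differences was not tested.

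PLAT, encoding tissue plasminogen activator, went the other way. It stood at 255.0, 277.8 and 265.9 TPM in the control samples and at 380.4, 353.2 and 378.9 TPM in the PERK siRNA samples. All 3 PERK siRNA samples were above all 3 control samples, and the log2 fold change was 0.48 (SE 0.03), a level 1.40-fold higher. PLAT lies on chromosome 8 (ENSG00000104368; 42175233 to 42207724, minus strand).

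The activators thus differed in opposite directions. PLAU stood at 0.74, 0.67 and 0.67 of the PLAT level in the control samples and at 0.075, 0.073 and 0.068 of it in the PERK siRNA samples. Urokinase thus made up 41.0 ± 1.27% of the summed TPM of both activators in the controls and 6.74 ± 0.31% with PERK siRNA. The sum itself was 451.0 ± 11.8 TPM and 397.6 ± 16.2 TPM, so the total of activator transcripts differed far less than their make-up.

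**Figure D2:**
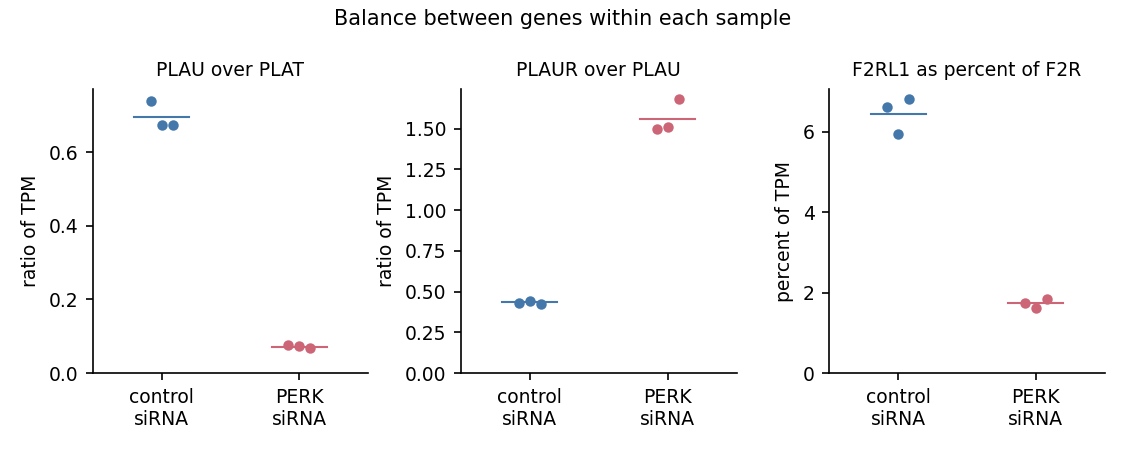
Ratios of TPM within each sample, with 1 point per sample and a bar at the group mean: PLAU over PLAT, PLAUR over PLAU, and F2RL1 as a percentage of F2R. In each panel the 3 control siRNA samples (blue) and the 3 PERK siRNA samples (red) are apart, and each axis starts at 0.

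Among the serpins, SERPINE2, which encodes the thrombin and urokinase inhibitor protease nexin-1, was slightly higher. It stood at 83.7, 91.2 and 80.7 TPM in the control samples and at 93.4, 96.7 and 96.2 TPM with PERK siRNA. The groups did not overlap, but the gap between the highest control and the lowest PERK siRNA sample was small beside the spread of the controls, and the log2 fold change was 0.17 (SE 0.04, 95% interval 0.10 to 0.24). Set against urokinase, the TPM of SERPINE2 was 0.46 ± 0.02 times that of PLAU in the controls and 3.57 ± 0.27 times it with PERK siRNA. SERPINE2 lies on chromosome 2 (ENSG00000135919; 223975112 to 224039319, minus strand).

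SERPINB2, encoding PAI-2, was scarce and lower. Only 30, 29 and 27 reads were counted in the control samples and 16, 15 and 8 in the PERK siRNA samples, and the log2 fold change of -1.11 (SE 0.30) had a wide 95% interval of -1.73 to -0.49. Of its reads 68.0% were placed uniquely, against all reads of the other 8 genes, and on uniquely placed reads the value was -1.07. SERPINB2 (ENSG00000197632; chromosome 18, 63871692 to 63903890, plus strand) shares 19.9% of its exon bases with SERPINB10, which was listed at 0 reads in every sample. It passed the expression filter through its control samples.

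Both protease-activated receptor genes among the 9 were lower, by very different factors. F2R, encoding the thrombin receptor PAR1, stood at 285.8, 285.4 and 277.1 TPM in the control samples and at 146.9, 143.9 and 147.5 TPM with PERK siRNA. These samples were tightly grouped on either side, and the log2 fold change was -0.95 (SE 0.03). F2RL1, encoding PAR2, which trypsin-like proteases and the tissue factor complex activate, went from 18.9, 16.9 and 18.8 to 2.58, 2.32 and 2.71 TPM. Its groups were far apart too, at a log2 fold change of -2.84 (SE 0.13, 95% interval -3.11 to -2.56), 7.14-fold lower. Its PERK siRNA values rest on 39, 38 and 44 reads, so counting alone gives them an error of about 15.7%. F2RL1 transcripts amounted to 6.45 ± 0.45% of F2R transcripts in the controls and to 1.74 ± 0.11% with PERK siRNA. F2R (ENSG00000181104; 76716043 to 76735781) and F2RL1 (ENSG00000164251; 76818933 to 76835315) lie on the plus strand of chromosome 5 with 83151 bases between them, and 0.959% of the F2R exon bases overlap the antisense gene AC025188.1.

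The genes of clotting at the cell surface did not separate the groups. F3 encodes tissue factor, the receptor that starts coagulation, and stood at 84.0, 85.0 and 82.1 TPM in the control samples and at 87.2, 83.6 and 88.7 TPM with PERK siRNA. The samples overlapped, and the 95% interval of the log2 fold change (0.05, SE 0.04) ran from -0.03 to 0.14, so a difference of more than 1.10-fold upwards lay outside it. THBD encodes thrombomodulin, the endothelial receptor that turns thrombin towards activation of protein C. It was scarce, with 25, 33 and 30 reads in the control samples and 24, 29 and 24 with PERK siRNA. The samples overlapped, and the interval around its log2 fold change of -0.17 was wide, from -0.67 to 0.33, so that a 1.26-fold rise or a fall to 0.63 of the control level could not be told from no difference at this depth. F3 lies on chromosome 1 (ENSG00000117525; 94529225 to 94541800) and THBD on chromosome 20 (ENSG00000178726; 23045633 to 23049741), both on the minus strand.

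All 9 genes passed the expression filter of edgeR and were among the 12973 genes tested. At an adjusted p under 0.05, 5 were called lower and 2 higher, and for the same 7 the groups did not overlap in CPM (counts scaled to library size, not to length). Over all genes tested 69.5% were called, 35.0% lower and 34.4% higher, and 71.8% did not overlap, so a call is the usual outcome in these samples and nothing is read from the count of genes that were chosen on this contrast. The sizes below come from the same contrast and only describe the set. The median log2 fold change of the 9 genes was -0.94, against 0.00 over all genes tested, and 3 of the 9 were at least 2-fold lower, as were 3.92% of all genes tested. SERPINB2 counts among these 3 and among the 5 called lower. Only 2 of its PERK siRNA samples reached the level that the filter asks, and its value was -0.84 without PERK siRNA replicate 3. Ranked from the lowest fold change upwards, F2RL1 was number 32 and PLAU number 35 of all genes tested. In the same order SERPINB2 was number 415, F2R 580 and PLAUR 599.

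**Figure D3:**
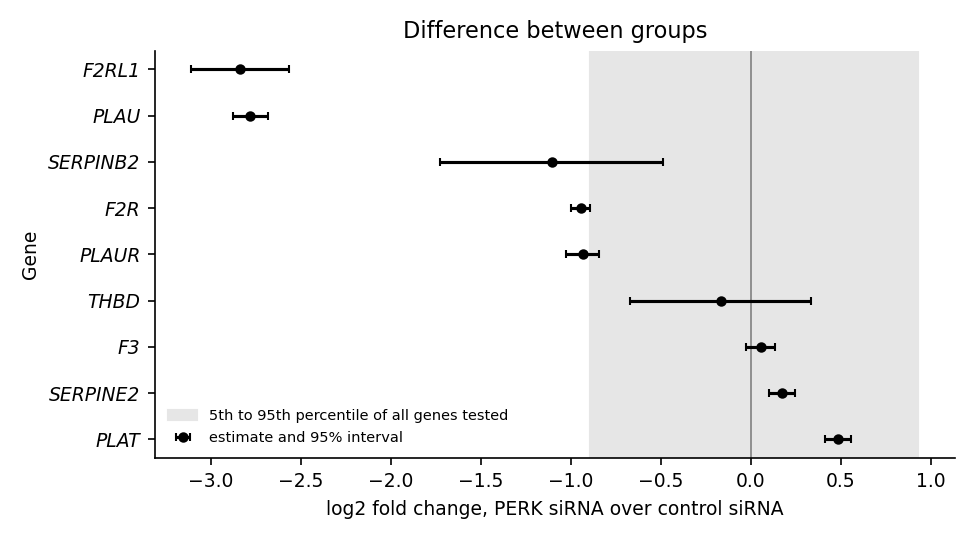
Log2 fold change of each gene, PERK siRNA over control siRNA, with its 95% interval from edgeR's fit of 3 against 3 samples, over a grey band that holds the middle 90% of all genes tested (-0.89 to 0.93). F2RL1 and PLAU lie far below the band at -2.84 and -2.78, PLAT and SERPINE2 lie inside it above 0, and the intervals of F3 and THBD cross 0.

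The error within groups was small for the abundant genes. Between control samples the coefficient of variation in CPM was 1.22% for F2R, 2.05% for PLAU, 3.36% for PLAUR and 3.81% for PLAT, where counting alone would give 1.27, 1.87, 2.57 and 1.35%. F2R thus varied about as much as counting predicts, and PLAT more. For SERPINB2 with PERK siRNA the coefficient was 35.9%, with 27.7% from counting.

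The genes whose levels followed PLAU and F2RL1 most closely were found by root-mean-square distance in the 6 samples. It was taken between values of log2 of CPM plus 0.5, set against the control mean. The search covered 10027 other genes with an average log2 CPM by edgeR of at least 3. Nearest to PLAU were SCG2, which encodes the secreted granule protein secretogranin II (distance 0.074), the vascular growth factor gene VEGFA (0.094) and the extracellular protease gene ADAMTS15 (0.12 log2 units). For F2RL1 the nearest were ADAMTS15 (0.13), VEGFA (0.14) and MSANTD3 (0.15). The added 0.5 shrinks the difference of a scarce gene such as F2RL1, at 2.14 CPM with PERK siRNA. Its list therefore leans to genes with smaller differences, such as MSANTD3 at a log2 fold change of -2.43, beside -2.84 for F2RL1. With only 2 groups of 3 samples, this distance mainly reflects genes with a like difference between the groups.

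The other genes of the system were described from 5 lists of 50 genes in all, of which 38 were expressed enough to be tested. Of these, 13 were higher and 19 lower at an adjusted p under 0.05 by edgeR's quasi-likelihood test and 6 did not pass, that is 34.2% higher and 50% lower, beside 34.4% and 35.0% of all genes tested. The median log2 fold change of the 38 was -0.22.

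Genes that hold plasminogen at the cell surface or clear the activators were mostly higher: 5 of 8 tested members rose, 2 fell and 1 did not pass (median 0.32). The annexin gene ANXA2 rose from 1365 ± 48.3 to 2261 ± 41.1 CPM (log2 fold change 0.73, SE 0.03; SD over 3 samples a group, here and in the other lists), and its partner S100A10, which binds plasminogen, from 185.2 ± 9.62 to 233.1 ± 1.44 CPM (0.33, SE 0.03). LRP1, the endocytic receptor that takes up activator-inhibitor complexes, rose by 0.60 (SE 0.03), and MRC2, a collagen receptor that associates with the urokinase receptor, by 0.32 (SE 0.03). The 2 that fell were ENO1, from 2400 ± 66.1 to 2026 ± 55.3 CPM (-0.24, SE 0.02), and VLDLR (-0.44, SE 0.09, adjusted p = 3.8e-05 by edgeR). Both were picked with their values in view. Plasminogen itself (PLG) had under 3 reads in every sample.

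Among 6 tested inhibitors 4 fell, 0 rose and 2 did not pass (median -0.40) by edgeR, and limma-voom also called 0 higher. DESeq2 called 1 higher, as did edgeR without a filter: SERPINC1, encoding antithrombin, which was too scarce for the filter at 3, 3 and 0 reads with control siRNA and 7, 12 and 8 with PERK siRNA, and was picked with its values in view. At an unadjusted p under 0.05 edgeR had 1 of the tested inhibitors higher, SERPINB6 at 0.08 (SE 0.04), a gene picked with its values in view. TFPI2, a matrix-bound inhibitor of plasmin and trypsin, fell from 374.6 ± 16.1 to 116.8 ± 5.88 CPM (-1.68, SE 0.04). TFPI, the inhibitor of the tissue factor complex, fell by 0.43 on the log2 scale (SE 0.05), and the intracellular serpin gene SERPINB8 fell by 0.38 (SE 0.04). SERPIND1, encoding heparin cofactor II, was called lower but had only 12, 13 and 12 reads in the control samples and 1, 1 and 2 with PERK siRNA. It passed the expression filter through its control samples alone, so it had to differ, and without it the count of inhibitors that fell is 3. SERPINF2, which encodes the plasmin inhibitor, and SERPINA5 stayed under 3 reads in every sample.

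The partners of the urokinase receptor split evenly, with 4 of 8 tested members higher and 4 lower (median 0.05). The fibronectin receptor subunit gene ITGA5 fell from 818.5 ± 18.6 to 287.0 ± 7.97 CPM (-1.51, SE 0.03), while ITGB1, the gene of the β subunit with which it pairs, rose from 335.8 ± 8.31 to 848.1 ± 8.22 CPM (1.34, SE 0.02). Of the vitronectin-binding subunits ITGB5 fell by 0.77 on the log2 scale (SE 0.03) and ITGB3 rose by 1.91 (SE 0.09). Only 57.1% of the ITGB3 reads were placed uniquely. ITGAV, another integrin subunit gene of the list, fell from 151.5 ± 3.41 to 93.7 ± 3.25 CPM (-0.69, SE 0.03). It was picked with its values in view.

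Proteases that cut the receptors, or that urokinase and plasmin activate, were mostly lower or scarce. Of 12 listed, 6 were tested, of which 4 fell, 1 rose and 1 did not pass (median -0.70). The gelatinase genes MMP9 (69.5 ± 3.46 to 18.9 ± 0.55 CPM; -1.88, SE 0.05) and MMP2 (-0.54, SE 0.03) fell, as did MMP14, a membrane-bound collagenase (-0.74, SE 0.03). MMP1, an interstitial collagenase that can also cut PAR1, fell from 655.1 ± 40.0 to 186.1 ± 25.8 CPM (-1.82, SE 0.12, adjusted p = 0.00015 by edgeR) and was chosen after its values were seen. The coagulation factor gene F10 rose from a low level, 0.73 ± 0.15 to 2.29 ± 0.24 CPM (1.64, SE 0.27). Thrombin (F2), F7, PROC, HPN and KLK6 had under 3 reads in every sample.

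Of the remaining receptors, cofactors and signal transducers 3 of 10 tested members rose, 5 fell and 2 did not pass (median -0.07). PROCR, the endothelial protein C receptor gene, fell from 59.1 ± 1.2 to 35.2 ± 0.96 CPM (-0.75, SE 0.04). The G protein subunit genes through which PAR1 signals moved little and in both directions, with GNA13 at -0.30 (SE 0.03) and GNAI2 at 0.32 (SE 0.02), and the arrestin gene ARRB1 fell by 0.31 on the log2 scale (SE 0.04). F2RL3, encoding PAR4, had under 3 reads in every sample. The adjusted p of the tested genes named here as having passed was at most 2.0e-05 by edgeR, MMP1 and VLDLR aside.

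**Figure D4:**
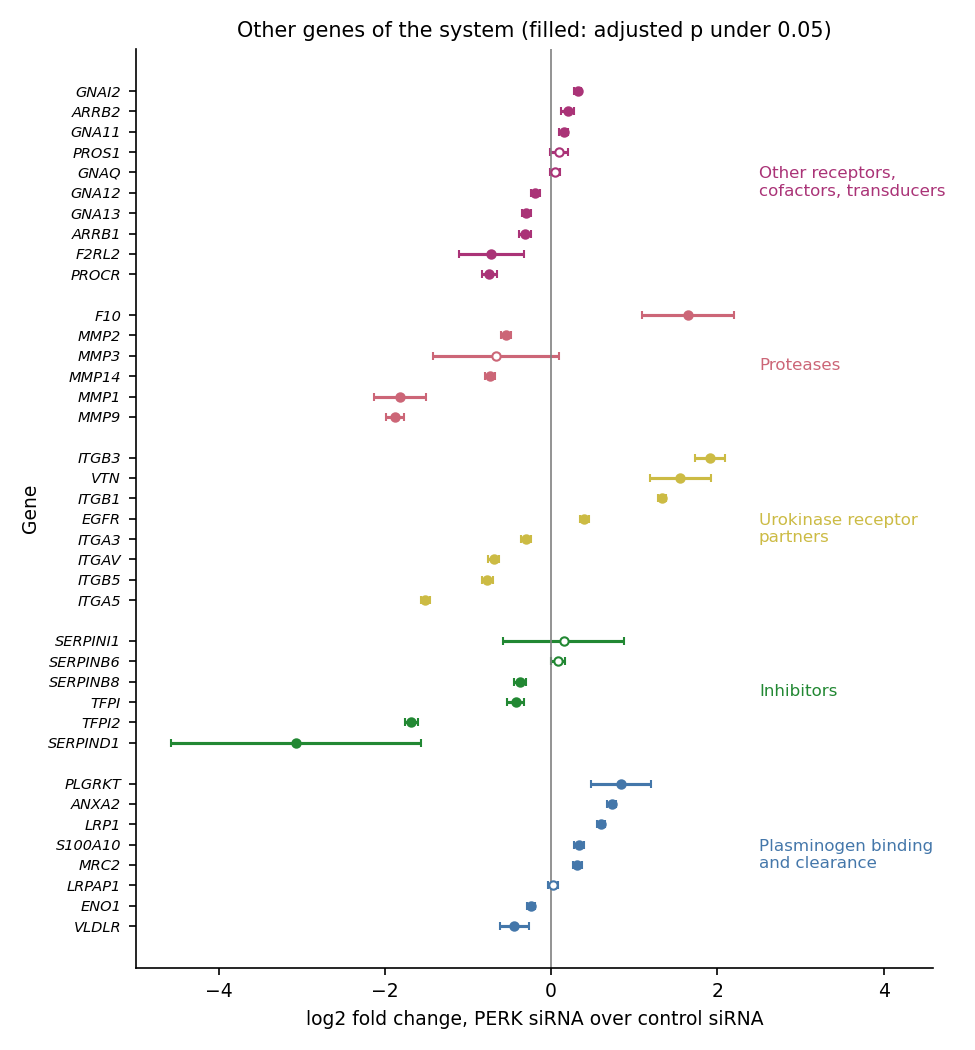
Log2 fold change, PERK siRNA over control siRNA, with 95% intervals for the 38 tested genes of the 5 lists, coloured by list; filled points passed an adjusted p under 0.05 and open points did not. Genes of plasminogen binding lie mostly to the right of 0, and the inhibitors and proteases that passed lie to the left of it, apart from F10.

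The 3′ untranslated regions of several members carry AU-rich words, the letters that RNA-binding proteins such as tristetraprolin and HuR recognise and that are well known from urokinase and PAI-2 transcripts. In the longest 3′ untranslated region annotated by GENCODE v29, the word TATTTAT (T for U) was found in 7 of the 9 genes, beside 36.1% of 12728 tested genes with such a region. The first match in 5 genes is printed within 30 bases, 5′ to 3′ on the gene's strand (GRCh38), with the word in capitals, to show the sites and the bases around them.
PLAU: tgtacactgaaTATTTATatttcactattt
F2R: taattgggcacTATTTATttacaaatgttt
F2RL1: aattgttggagTATTTATtgtcagttttgt
SERPINB2: ttttactttgtTATTTATtattttatataa
F3: tggggattttcTATTTATgtaggtaatatt

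The word was found in 4 of the 5 genes called lower, in 1 of the 2 called higher and in both that were not called. The 4 include SERPINB2, which passed the expression filter through its control samples. The part of the word in the differences was not tested. PLAU held 2 matches in 932 bases, and F3 2 in 1235 bases. PLAT, which was higher, held 2 in 760 bases, and THBD, which overlapped between groups, held 5 in 2144 bases. PLAUR, which was lower, held none in 362 bases, and neither did SERPINE2 in 755 bases. Longer regions hold the word more often: among regions 0.8 to 1.25 times as long as that of PLAU 22.8% held it, and among those as near the THBD length 45%.

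Cell type markers were checked because thrombomodulin and tissue plasminogen activator are also products of endothelial cells. Of 12 stellate markers 10 had at least 3 reads in a sample, led by VIM and COL1A1, but DES and DCN did not, and LUM and LRAT reached at most 3 and 5 reads. Their summed TPM was 4614 to 4747 with control siRNA and 5192 to 5210 with PERK siRNA. Most of this sum was VIM, with means of 2700 and 3202 TPM, so it mainly follows that gene. COL1A1 had means of 1649 and 1659 TPM. Mean levels of single stellate markers differed both ways, from 15.2 to 58.5 TPM for ACTA2, 33.0 to 108.0 for TAGLN and 8.12 to 18.6 for COL1A2, but from 246.8 to 132.2 for COL3A1 and 1.31 to 0.49 TPM for PDGFRA. The summed TPM of the 8 endothelial markers ran from 5.90 to 6.12 with control siRNA and from 1.85 to 2.43 with PERK siRNA, with STAB2, LYVE1 and CLEC4G under 3 reads. Among them PECAM1 had means of 4.44 and 0.31 TPM, whereas KDR (0.89 and 1.21) and TEK (0.21 and 0.33 TPM) went the other way. All hepatocyte markers apart from SERPINA1 were at 0 reads. Macrophage markers summed to 131.4 to 138.1 TPM and 119.4 to 123.0 TPM, nearly all of it CD68 (means 110.2 and 105.8 TPM) and CD14, while CSF1R went from 4.20 to 0.46 TPM and CD163, MARCO and C1QA were at 0. Of the 5 lymphocyte markers only PTPRC reached 3 reads (0.05 to 0.18 and 0.23 to 0.32 TPM summed over the list). Cholangiocyte markers, led by SOX9 and KRT7, summed to 130.6 to 138.4 and 85.6 to 94.8 TPM. The single markers given here by level were picked with their values in view, and PDGFRB, a stellate marker, had means of 26.4 and 23.3 TPM. The part of these marker differences in the results above was not tested.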

How the data were processed

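Each of the 6 deposited tables held, per the file headers, 3 measures for each gene: the count of all exon reads, that of uniquely placed ones, and TPM as scaled by the authors. The submitters' processing notes name hg38 as build. The aligner, counter, annotation and strand setting were not given in the sources used here. Groups came from the sample titles. Total exon reads as deposited were tested with edgeR 4.0.16 (R 4.3.3): TMM factors, default expression filter, robust quasi-likelihood test without covariates, and Benjamini-Hochberg adjustment over all 12973 genes tested. Standard errors came from the fitted weights and the moderated dispersion. The fit was run on simulated data with a common dispersion for all genes and few changed genes. These data differ from that setting, so the simulation does not vouch for the intervals given here. CPM use the TMM factors. TPM was described, not tested. A gene with under 3 reads in every sample is named only. Samples of a group differed by more than sampling noise (chi-square per degree of freedom 1.65 to 2.31), so none was taken for a copy.

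The members and lists were chosen with earlier results of these data known. Besides the members, genes were named by rule: the tested genes with the lowest adjusted p in each list (up to 4), the 3 nearest in level to PLAU and to F2RL1, and genes sharing exons with a member. The text marks each gene picked outside this rule with its values in view. Genes were placed with GENCODE v29 by Ensembl identifier, and promoters were taken from RefSeq by symbol. Alternatives were other scaling factors and filters, DESeq2 1.42.0, limma-voom (limma 3.58.1), unique exon reads, a replicate block, non-robust dispersion, leaving out each sample, and a test against a 1.2-fold change.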

Additional observations from a re-analysis of the deposited data

How the results depend on the processing

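None of the 9 genes changed the sign of its log2 fold change under the 16 alternatives that gave one. The 7 called genes were called under every alternative, apart from SERPINE2 in the test against a 1.2-fold change. The value of SERPINB2 moved from -1.11 to -0.84 without PERK siRNA replicate 3, while PLAU stayed between -2.83 and -2.75 and F2RL1 between -2.89 and -2.77. THBD moved from -0.17 to -0.29 without control siRNA replicate 1 and to -0.05 without control siRNA replicate 2, and F3 from 0.05 to 0.03 without PERK siRNA replicate 3 and to 0.08 without PERK siRNA replicate 2. Over all genes 4469 were called higher and 4545 lower; leaving out 1 sample gave 4198 to 4294 and 4334 to 4427, and the lists gave 13 to 14 and 19 to 20. DESeq2 called 3639 and 3929; DESeq2 and edgeR without a filter also called SERPINC1 higher and ITGAM and ST14 lower, at no more than 12 reads a sample, all picked with their values in view. Against a 1.2-fold change 2345 were higher and 2344 lower, fewer by construction. With the replicate number as a block 4460 and 4543 were called, and 13 and 19 in the lists. Samples with the same number did not deviate together (correlations of -0.032 to 0.015 across genes), so the numbers were not taken to pair them. Calls of SERPINB6 (adjusted p 0.028 to 0.27 over the alternatives) and MMP3 (0.039 to 0.46) were gained without control siRNA replicate 1, that of SERPINB6 also with upper-quartile factors; both genes were picked with their values in view. Depth limits SERPINB2, THBD and SERPIND1, at 1 to 33 reads per sample.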

Other observations

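Within 500 kb on either side of F2R and F2RL1 on chromosome 5 lie 10 other protein-coding genes of the GENCODE v29 annotation, of which 6 were tested, 2 fell and 3 rose at an adjusted p under 0.05 by edgeR; this window was chosen after the values were seen. Over all genes tested 69.5% were called, 35.0% lower and 34.4% higher, so nothing particular to the locus is read from that count. F2RL2, encoding the thrombin receptor PAR3, fell from 3.44 to 2.08 CPM (log2 fold change -0.72, SE 0.19, adjusted p = 0.0013 by edgeR). It lies within IQGAP2, on the opposite strand, which fell from 1.61 to 0.74 CPM (-1.11, SE 0.28). On the far side of F2RL1, AGGF1, an angiogenic factor gene, rose from 55.5 to 69.9 CPM (0.33, SE 0.04), and ZBED3 rose from 27.6 to 34.5 CPM (0.32, SE 0.05). CRHBP was called higher too, but it reached at most 21 reads and passed the expression filter through its PERK siRNA samples alone, so it had to differ; without it 2 neighbours rose.

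Vitronectin (VTN), a ligand that the urokinase receptor and the integrins share, was higher with PERK siRNA at a low level, 1.84 ± 0.43 and 5.41 ± 0.59 CPM (SD, n = 3 each; log2 fold change 1.55, SE 0.18, adjusted p = 3.7e-09 by edgeR), with 83.8% of reads placed uniquely. It was chosen after its values were seen.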
